A study of Mus musculus with 12 samples.

Results

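The 38 genes described here are DNA damage repair and Fanconi genes, chosen by symbol from the genes measured on 12 arrays of newborn mouse forebrain. The rule took, for each symbol, the probe set that names it alone and has the highest mean over the arrays. It found 36 of the 38 among 19938 genes with a probe set of their own; Xrcc2 and Rbbp8 had none and are not analysed here. Of the 36, 29 were bright enough to be tested, that is above the 40th percentile of the array on at least 3 arrays. The other 7, Fancb, Fancd2, Palb2, Rad51ap1, Rad54b, Brip1 and Chek2, lay below that limit and are given by their values.

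Each genotype was represented by 3 pups taken on the day of birth (postnatal day 0), untreated, with 1 array per pup. Control pups had the genotype Ctnnb1(ex3)Fl/+SmoM2Fl/+ and no Cre, so they carry 1 copy of each floxed allele, unaltered by Cre. GB pups were hGFAP-cre::Ctnnb1(ex3)Fl/+, in which Cre removes exon 3 of the beta-catenin gene and leaves a protein that is not degraded. GS pups were hGFAP-cre::SmoM2Fl/+, in which Cre switches on a constantly active Smoothened, the transducer of sonic hedgehog signalling. GBS pups were hGFAP-cre::Ctnnb1(ex3)Fl/+SmoM2Fl/+, with both alleles active, and their samples are labelled as tumor. The human GFAP promoter drives Cre mainly in radial glia and their descendants, so cells outside that lineage keep the unaltered alleles. Since Control alone lacks Cre, any effect of Cre enters every comparison with Control. The series title names the disease modelled, a childhood brain tumor called embryonal tumor with multilayered rosettes. Sample labels call the replicates biological, and nothing ties replicate numbers to litters.

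DNA breaks and crosslinks are a constant hazard for cells that copy their genome. The Fanconi proteins detect crosslinks that stall replication forks: a core complex attaches ubiquitin to the FANCD2-FANCI clamp, and nucleases then unhook the lesion. Broken ends are resected and repaired from the sister chromatid by BRCA1, BRCA2 and their partners, or rejoined directly by the Ku proteins and DNA ligase IV. The kinases ATM and ATR signal the damage to CHK2 and CHK1, which hold the cell cycle. In the embryonic forebrain these pathways matter most in dividing progenitors, and loss of several of the genes causes small brain size in mice or people.

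All values are log2 expression as deposited, so a difference of 1 is a 2-fold change. Differences are given with the standard error of a limma fit to all 12 arrays. A call, two-sided, required an adjusted p under 0.05 by the Benjamini-Hochberg method over all 14195 tested genes, and every adjusted p below is from that limma fit. Levels of different genes come from different probes and are not set against each other. The forebrain label was checked with Emx1, a marker of the dorsal forebrain chosen after other values were seen, which lay between 7.9 and 8.48 and above its array's median on all 12 arrays. The hindbrain gene Hoxb3 was also above the median on all 12 arrays (7.15 to 7.89), and Hoxa2 was below the 40th percentile on every array. Array medians ran from 6.52 to 6.69. GB replicate 2, GS replicate 3 and Control replicate 3 lay toward the same end of the first principal component (70.2, 17.2 and 30.7). Xist, high in females, was at 8.66 to 10.83 in 2 of 3 GS and 2 of 3 GB pups and at most 5.02 in all GBS and Control pups, so comparisons with GS or GB also differ in sex.

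In the GBS tumors 12 of the 29 tested repair genes were higher than in Control and 0 were lower (17 and 0 without adjustment at p under 0.05, where 20.1% of all genes were higher and 18.7% lower). Of all genes tested, 11.0% were called higher and 4.35% lower. The 12 were Xrcc5, Chek1, Atm, Blm, Brca2, Topbp1, Brca1, Nbn, Msh6, Rad50, Parp1 and Polq, with rises from 0.44 (Polq) to 1.82 (Xrcc5), 4 of them by at least 2-fold. Each of the 12 passed the brightness limit on at least 3 arrays outside GBS, as did 26 of the 29. Fancc, Fancm and Fanci passed it only with the GBS arrays counted. They enter the median of the 29 below, and Fancm is among the 17 higher without adjustment. Among the Control arrays, Xrcc5, Blm and Brca2 passed the brightness limit on 0 and Atm on 1. The Control levels of these genes thus lie near or below that limit. Without that limit, 12 of all 36 genes were higher and 0 lower, where 8.04% of all genes were higher. The median difference of the 29 was 0.43, against -0.10 for all genes tested. In tissue, a higher value can come from more cells that express a gene or from more RNA per cell, and these cannot be told apart here. The count was 7 without Control replicate 1 (5.65% of all genes) and 6 without Control replicate 3 (4.66%), so fewer genes were called over the whole array too. With a covariate for array background, the median of the receptor genes given in the next paragraphs, 8 genes passed (5.56% of all genes), 6 of them among the 12. It was 8 without GBS replicate 2 (4.45% of all genes) and 16 without GB replicate 2 (23.0%), an array used here for the spread alone. All GBS arrays lay above all Control arrays for 20 of the 36 genes (22.1% of all genes), and above all 9 other arrays for 15 (10.2%).

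**Figure D1:**
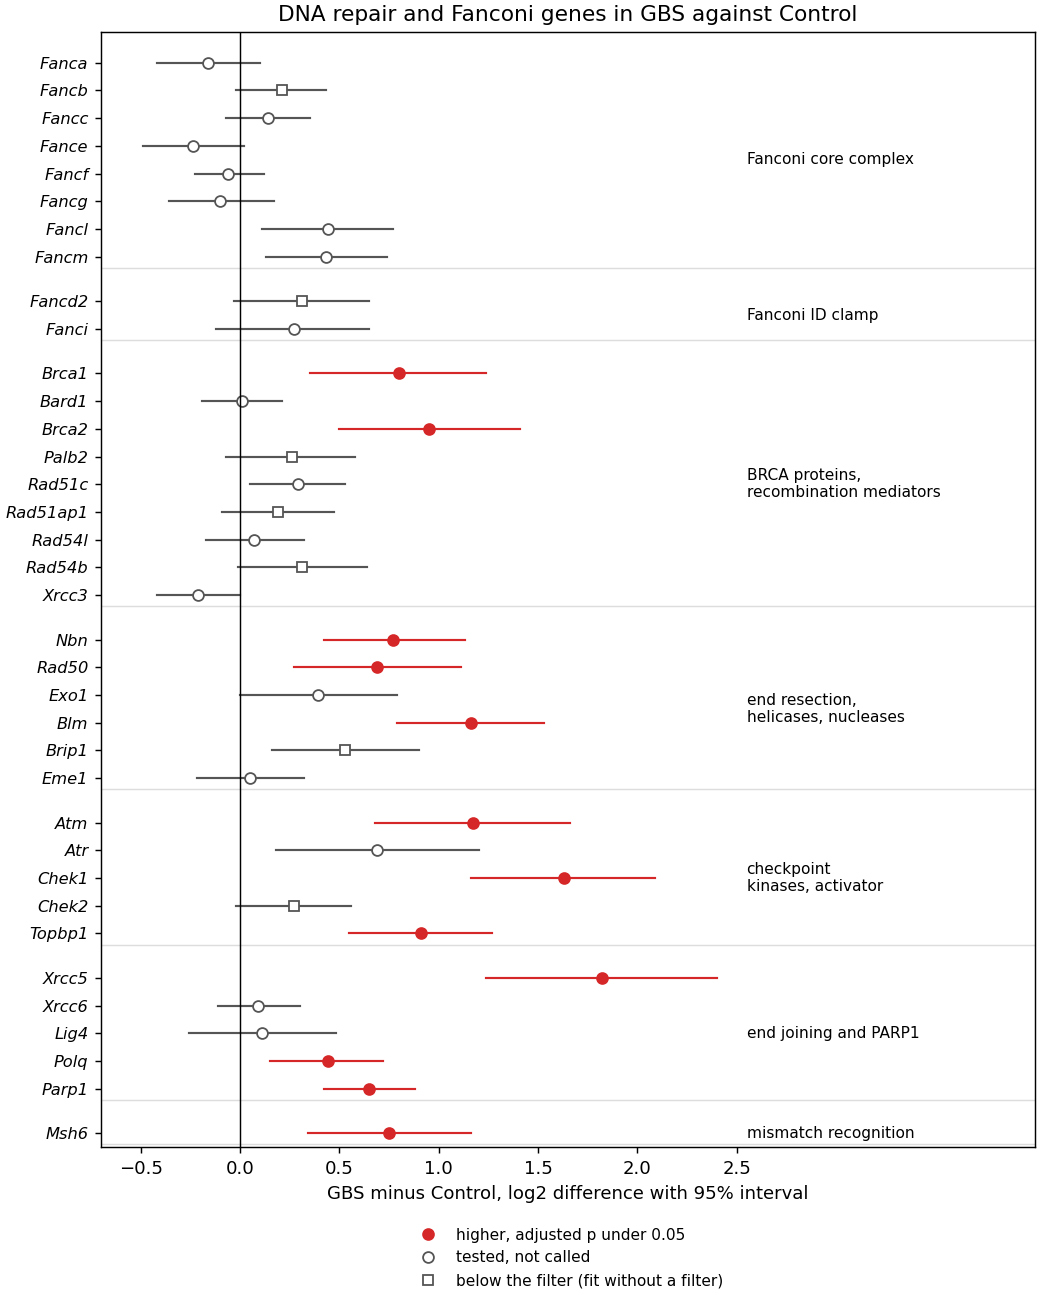
Difference between GBS and Control (x axis, log2, 3 arrays each) for the 36 repair genes with a probe set, grouped by role; points are the fitted difference and lines its 95% interval, filled red points passed the test, and squares are genes below the brightness limit. The 12 called genes lie between 0.44 and 1.82, and the Fanconi core genes lie on both sides of 0.

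Markers of dividing cells were also higher in GBS than in Control. Of 17 tested genes of mitosis and the cell cycle, none of them a repair gene listed here, 13 were higher in GBS and 0 lower, with a median difference of 1.5. Bub1, Nusap1, Birc5 and Ttk, which are included in the median of 1.5, passed the brightness limit only with the GBS arrays counted. Of the other 13 genes 10 were higher and 0 lower. The log2 of their summed level over 19 genes was 10.78 to 10.85 in Control, 10.84 to 10.91 in GB, 11.11 to 11.53 in GS and 12 to 12.89 in GBS, with no overlap between GBS and the rest. Bub1b and Kif20a were below the brightness limit. In GS against Control limma called 0 of the 17 markers (unadjusted, 9 higher and 0 lower), with a median difference of 0.44. The 29 repair genes had a median of 0.03 in GS (unadjusted, 1 higher and 0 lower). Medians over the Control mean on the 3 GS arrays were 0.31, 0.1 and 0.47 for 19 markers. They were 0.34, 0.22 and 0.17 for the 12 repair genes called in GBS against the same Control arrays. For the 24 other repair genes they were -0.1, -0.09 and 0.1, and the difference between the lists was not tested. In GBS against Control, of 14 genes of postmitotic neurons 0 were higher and 3 lower. Their summed level (12.93 to 13.31 in Control, 12.28 to 13.01 in GBS) overlapped. Of 6 tested microglia genes limma called 0 (unadjusted, 0 higher and 2 lower), with Aif1, Itgam and P2ry12 below the limit; their sum was 9.76 to 9.88 in Control and 9.57 to 9.67 in GBS. Of 7 tested endothelial genes 1, Emcn, was higher and 0 were lower, with Tek below the limit and sums of 9.54 to 9.73 and 9.66 to 9.67. Of 2 tested erythroid genes limma called 0 (1 higher and 0 lower unadjusted), with Epb42 below the limit and sums of 8.35 to 8.48 and 8.34 to 8.39. The median of 1190 olfactory and vomeronasal receptor genes, which are mostly silent in brain, was 5.117 to 5.23 in Control and 4.839 to 4.92 in GBS. Of these, only the background level was entered as a covariate, in the fit above that kept only some of the calls. The part of dividing cells, of the other cell types and of this background level as causes of the results was not tested.

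**Figure D2:**
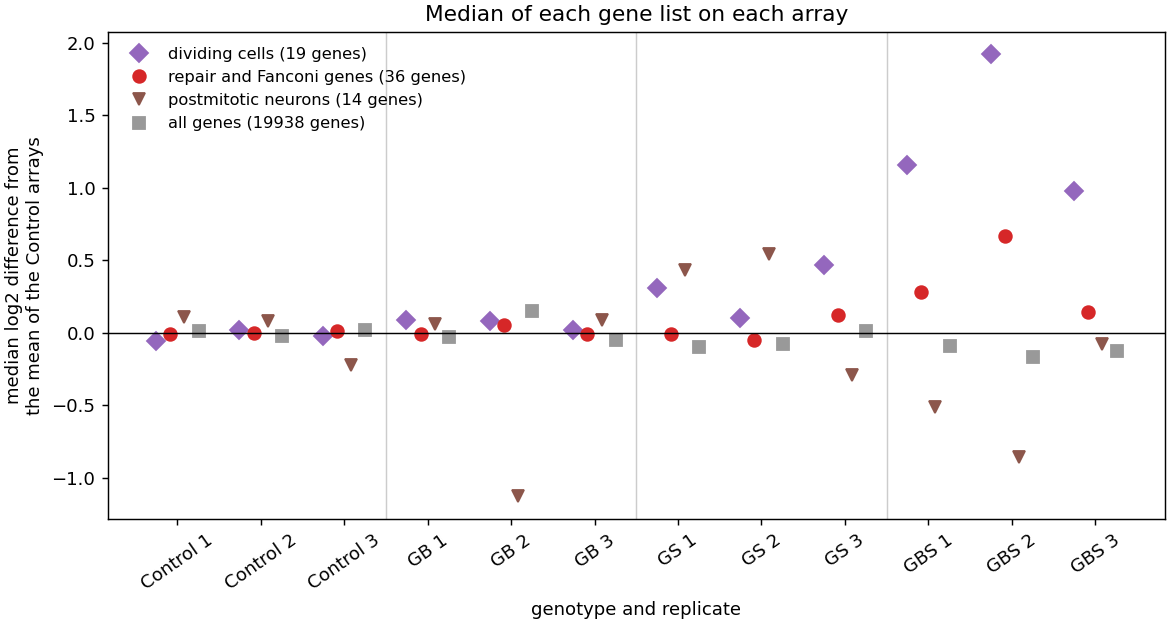
Median log2 difference from the mean of the Control arrays (y axis) for 4 gene lists on each of the 12 arrays (x axis, genotype and replicate). The dividing-cell markers (19 genes) reach 0.98 to 1.92 in GBS, the 36 repair genes 0.14 to 0.67, and both are highest on GBS replicate 2.

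The counts by role below can be set against the 11.0% of all genes called higher and 4.35% lower. Of the checkpoint genes 3 of 4 tested rose and 0 fell. Chek1, which encodes the kinase CHK1 that slows replication and blocks mitosis under stress, was at 8.08, 8.69 and 7.61 in the GBS pups. It was at 6.46, 6.48 and 6.54 in Control, 6.61, 6.37 and 6.7 in GB, and 6.96, 6.82 and 6.88 in GS. Every GBS array thus lay above all others, and the GBS arrays were also the most spread (SD 0.541, n = 3). Chek1 rose 3.09-fold against Control, by 1.63 ± 0.211 (SE; adjusted p = 0.00093).

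Atm, the kinase that responds to double-strand breaks, was at 7.19, 7.75 and 6.95 in GBS and at 6.3, 6.09 and 5.99 in Control. GS replicates 1 and 2 (6.75 and 6.7) lay between the groups and GS replicate 3 (6.17) within the Control range. Atm rose 2.25-fold in GBS, by 1.17 ± 0.223 (SE; adjusted p = 0.00753). With the receptor-gene level as a covariate its adjusted p was 0.0588. Topbp1, which activates ATR at stalled forks, was at 7.79, 8.32 and 7.65 in GBS and 7.04, 6.87 and 7.12 for Control, a rise of 0.91 ± 0.164 (SE; adjusted p = 0.00579). Atr itself, the kinase of stalled forks, was at 7.15, 7.49 and 7.12 in GBS and 6.63, 6.7 and 6.35 in Control. These arrays did not overlap, but the difference of 0.69 ± 0.231 (SE) did not pass the test (adjusted p = 0.0647). GB replicate 2 was low for Atr, at 5.91 against 6.83 and 6.82 in the other GB pups, and without that array Atr passed. Chek2, the kinase downstream of ATM, was below the brightness limit, at 5.65 to 6.1 in GBS and 5.52 to 5.65 in Control.

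Of the genes for BRCA proteins and recombination mediators, 2 of 6 tested rose and 0 fell. Brca2, a tumor suppressor needed for repair by homologous recombination, was at 6.78, 7.53 and 6.6 in GBS and 5.98, 6.14 and 5.94 in Control. It rose 1.93-fold, by 0.95 ± 0.207 (SE; adjusted p = 0.0135). Brca1, the ubiquitin ligase that promotes recombination, was at 6.98, 7.73 and 6.9 in GBS and 6.36, 6.41 and 6.45 in Control. It rose 1.74-fold, by 0.80 ± 0.204 (SE; adjusted p = 0.0274), with GBS replicate 2 well above the other pups in both genes. The Brca2 call ended without Control replicate 1, without Control replicate 3 and with the receptor covariate (adjusted p up to 0.058). Brca1 lost its call when GBS replicate 2 was left out, or any 1 Control array (up to 0.0835).

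Bard1, whose protein pairs with BRCA1 in the ligase, was at 6.49, 6.56 and 6.49 in GBS and 6.44, 6.53 and 6.53 in Control. The groups overlapped and the difference was 0.01, with a 95% interval of -0.19 to 0.21. Its other probe sets differed by -0.13 and -0.02. Rad51c, a recombination mediator, was at 6.74, 6.83 and 6.49 in GBS and 6.43, 6.29 and 6.47 in Control (0.29 ± 0.109 SE; adjusted p = 0.0849). Rad54l, a motor protein of homologous recombination, differed by 0.07 (adjusted p = 0.603). Xrcc3, also a recombination mediator, had all GBS arrays (7.38 to 7.58) below all Control arrays (7.64 to 7.71), and its difference of -0.21 did not pass (adjusted p = 0.134). Among the dim genes, Palb2, the bridge between BRCA1 and BRCA2, was at 5.68 to 6.18 in GBS and 5.55 to 5.76 in Control. Rad51ap1, an accessory factor of recombination, was at 5.58 to 5.94 and 5.47 to 5.69. Rad54b was at 5.86 to 6.5 and 5.74 to 5.85. In a fit without the brightness limit these 3 genes differed by 0.26, 0.19 and 0.31 (adjusted p = 0.204, 0.257 and 0.144).

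Of the genes for end resection, helicases and nucleases, 3 of 5 tested rose and 0 fell. Blm, the helicase lost in Bloom syndrome, which dissolves crossed DNA intermediates, was at 7.19, 7.59 and 6.97 in GBS and 6.03, 6.26 and 5.98 in Control. It rose 2.24-fold, by 1.16 ± 0.167 (SE; adjusted p = 0.00171), with every GBS array above the 9 others. Nbn and Rad50 encode parts of the MRN complex, which binds broken ends first. Nbn was at 7.62, 7.9 and 7.25 in GBS and 6.82, 6.89 and 6.74 for Control, a rise of 0.77 ± 0.16 (SE; adjusted p = 0.0111). A second Nbn probe set went the other way, with means of 6.69 in GBS and 6.90 in Control, and with the mean of both sets the difference was 0.28 and not called (adjusted p = 0.052). The Nbn call also ended without Control replicate 3 and with the receptor covariate (adjusted p = 0.0505 and 0.0917). Rad50 was at 7.58, 7.97 and 7.54 in GBS and 7.06, 7.07 and 6.89 for Control, a rise of 0.69 ± 0.189 (SE; adjusted p = 0.0346). This call ended in 11 of 25 alternatives, among them any single GBS or Control array left out, with adjusted p up to 0.403.

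The nuclease genes did not pass. Exo1, which lengthens the resected stretch, was at 6.67, 7.07 and 6.44 in GBS and 6.26, 6.27 and 6.46 in Control, overlapping (0.39 ± 0.178 SE; adjusted p = 0.128). Eme1, part of a nuclease that cuts branched DNA, differed by 0.05, with a 95% interval of -0.22 to 0.32. Brip1, a helicase that binds BRCA1 and is also a Fanconi protein, was below the brightness limit, at 6.22, 6.61 and 5.87 in GBS and 5.78, 5.59 and 5.75 in Control. All GBS arrays were above the 9 others for Brip1, and without the limit its difference was 0.53 ± 0.169 (SE; adjusted p = 0.0648).

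Among end joining genes, limma called Xrcc5, Polq and Parp1 higher and 0 of 5 lower. Xrcc5, which encodes the large subunit of the Ku heterodimer that caps broken ends, had the largest rise of the 29 genes. It was at 7.71, 8.34 and 7.82 in GBS, 6.93, 6.63 and 6.57 in GS, 6.68, 5.65 and 6.7 in GB, and 6.08, 6.29 and 6.03 in Control. The rise in GBS was 3.54-fold, or 1.82 ± 0.263 (SE; adjusted p = 0.0018), and no other array reached the GBS range. Xrcc6, the gene of the other Ku subunit, was at 6.69, 6.7 and 6.42 in GBS and 6.51, 6.51 and 6.52 in Control. It differed by 0.09, with a 95% interval of -0.11 to 0.30, and the groups overlapped.

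Parp1, which marks breaks with poly(ADP-ribose), was at 7.87, 8.02 and 7.84 in GBS and 7.33, 7.3 and 7.14 for Control, a rise of 0.65 ± 0.103 (SE; adjusted p = 0.00283). Polq, the polymerase of theta-mediated end joining, was at 7.09, 7.49 and 6.99 in GBS and 6.73, 6.76 and 6.76 in Control. Its rise of 0.44 ± 0.128 (SE; adjusted p = 0.0431) was the smallest called, and the call ended in 12 of 25 alternatives, 9 of them with a single array left out (adjusted p up to 0.156). Lig4, the ligase of direct end joining, was at 8.24, 8.22 and 8.23 in GBS and 8.23, 8.02 and 8.12 in Control (0.11; adjusted p = 0.601). Msh6, which recognises mismatched bases, was at 7.65, 8.02 and 7.71 in GBS and 7.08, 7.31 and 6.75 for Control, a rise of 0.75 ± 0.186 (SE; adjusted p = 0.0242). Msh6 lost its call when GBS replicate 2, or Control replicate 1 or 3, was left out (adjusted p up to 0.249 over the alternatives).

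**Figure D3:**
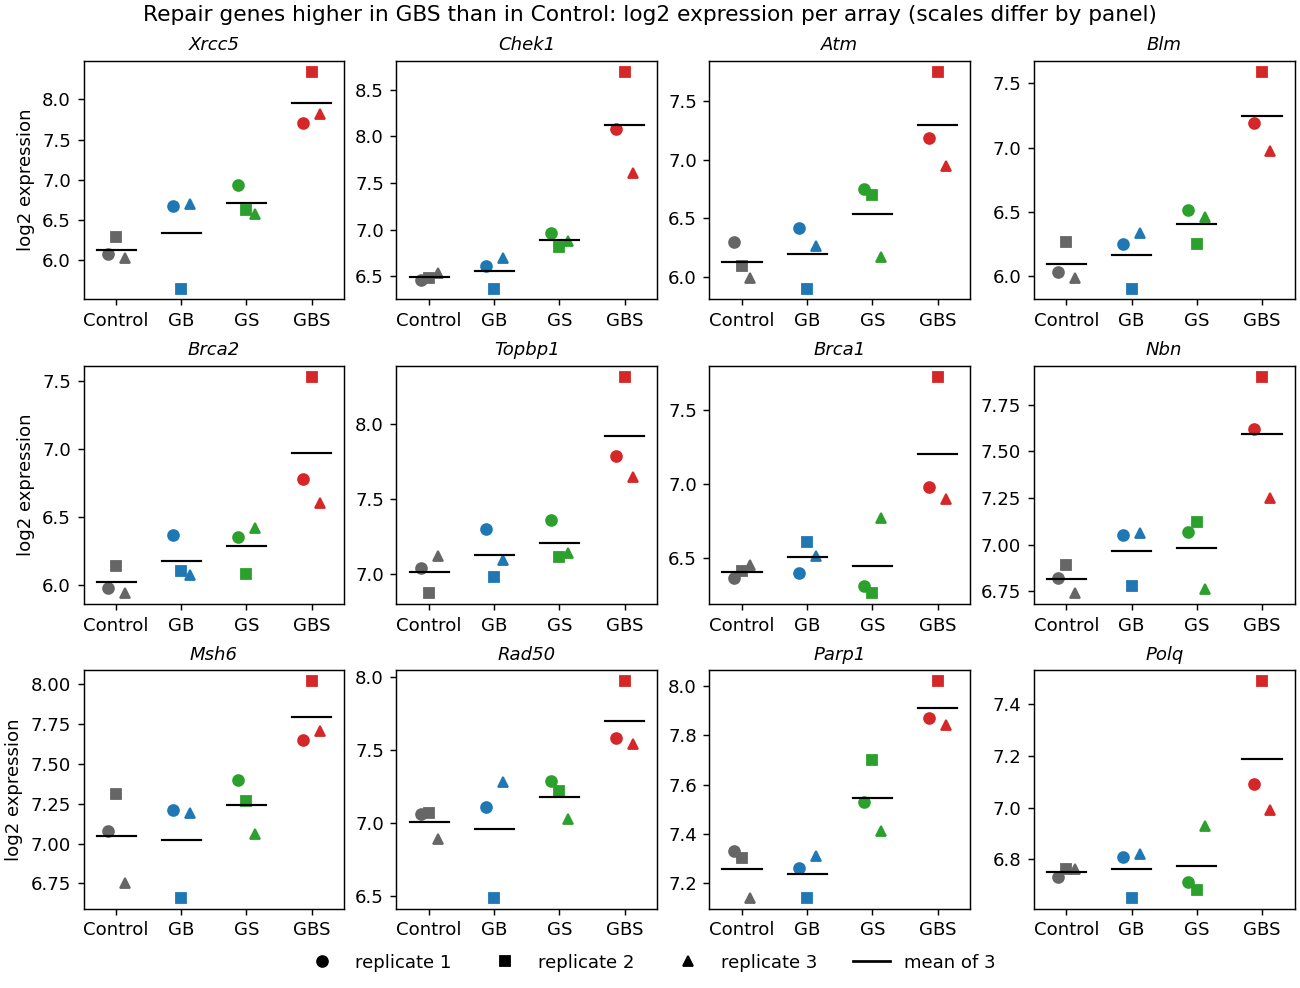
Log2 expression (y axis, a scale per panel) of the 12 repair genes called higher in GBS, by genotype (x axis); symbols mark replicates 1 to 3 and lines the mean of 3 pups. For each gene the 3 GBS arrays lie above the Control arrays, and GBS replicate 2 is the highest of the 12 arrays.

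In the Fanconi core complex limma called 0 of 7 tested genes, where 11.0% of all genes were called higher and 4.35% lower. A count of 0 of 7 does not set the complex apart from these shares. Without adjustment 2 were higher and 0 lower (20.1% and 18.7% of all genes), and the median difference was -0.06. Fancl, the ubiquitin ligase subunit, was at 6.6, 7.03 and 6.71 in GBS and 6.49, 6.37 and 6.16 in Control (0.44 ± 0.15 SE; adjusted p = 0.0692). Fancm, the helicase that anchors the complex on DNA, was at 6.34, 6.63 and 6.25 in GBS and 6.13, 5.95 and 5.84 in Control (0.43 ± 0.138 SE; adjusted p = 0.0567). Neither set of arrays overlapped, and both genes passed without GB replicate 2. Fancm passed the brightness limit only with the GBS arrays counted, as did Fancc and Fanci.

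The remaining core genes ranged from -0.24 to 0.14. Fance, which contacts FANCD2, had GBS arrays at 7.04, 7.03 and 6.94 and Control arrays at 7.15, 7.3 and 7.28, a difference of -0.24 (adjusted p = 0.153). Fanca, the most often mutated gene in Fanconi anemia, was at 6.33 to 6.59 in GBS and 6.59 to 6.7 in Control (-0.16; adjusted p = 0.293). With Xrcc3 these were the 3 of 36 genes with all GBS arrays below all Control arrays, which held for 40.5% of all genes. Fancg, Fancf and Fancc, further subunits, differed by -0.10, -0.06 and 0.14 (adjusted p = 0.514, 0.565 and 0.258). Fancb, an X-linked subunit, was below the limit, at 5.24 to 5.6 in GBS and 5.14 to 5.24 in Control.

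The clamp genes were dim. Fancd2 was at 5.85, 6.28 and 5.59 in GBS and 5.45, 5.71 and 5.65 in Control, below the brightness limit. Fanci was at 6.42, 6.68 and 6.05 in GBS and 6.06, 6.12 and 6.18 in Control (0.27; adjusted p = 0.244). In both genes GBS replicate 2 was highest and GBS replicate 3 lay within or below the Control range.

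Partner proteins were compared on the same array in 5 pairs, chosen after the values were seen. The log2 difference between Xrcc5 and Xrcc6 on the same array, set to 0 at the Control mean, was 1.4, 2.02 and 1.77 in GBS and -0.05, 0.16 and -0.11 in Control. That between Brca1 and Bard1 was 0.59, 1.26 and 0.5 in GBS and 0.02, -0.03 and 0.01 in Control. Neither pair overlapped between the groups, and each had a two-sided exact permutation p = 0.1 (0.25 adjusted over 5 pairs), the smallest p that 3 against 3 allows. Because the values were known when the 5 pairs were picked, their p-values cannot test whether partners differ. Nbn against Rad50 (0.08), Fancd2 against Fanci (0.04) and Topbp1 against Atr (0.21) overlapped (exact permutation p = 0.5, 0.7 and 0.4). The Nbn value is that of the probe set that differed by 0.77 between GBS and Control. Its second probe set differed by -0.21, so the result for this pair depends on the probe set.

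Repair genes outside the 38 were counted from lists in GBS against Control, where 11.0% of all genes were higher and 4.35% lower. Of 24 tested Fanconi and recombination genes 7 rose and 1 fell, and of the 21 that passed the brightness limit without the GBS arrays 6 rose and 1 fell. Gen1, a nuclease that cuts crossed DNA, was 1.29 above Control (adjusted p = 0.00355) but passed the limit only with the GBS arrays counted. Usp1, which removes ubiquitin from FANCD2, rose by 0.93 (adjusted p = 0.0123) and the RAD54-like helicase gene Rad54l2 by 0.52 (adjusted p = 0.0167). The gene that fell, named after its value was seen, was the core complex partner Faap100 (-0.35; adjusted p = 0.0298). Of 12 checkpoint genes 5 rose and 0 fell. They include Hus1, of the 9-1-1 clamp (0.83; adjusted p = 0.000234), Wee1, a kinase that restrains CDK1 (1.26; adjusted p = 0.00188), and Tipin, of the fork protection complex (1.69; adjusted p = 0.00724). Of 6 end joining genes 3 rose and 0 fell: the ligase gene Lig3 (0.73; adjusted p = 0.00355), Prkdc, the kinase recruited by Ku (0.81; adjusted p = 0.018), and Parp2 (0.69; adjusted p = 0.0238). Of 21 mismatch and excision repair genes 5 rose and 0 fell, with Pms1 (0.70; adjusted p = 0.00106), the glycosylase gene Neil3 (0.62; adjusted p = 0.00673) and Ddb1, of a lesion-sensing ligase (0.96; adjusted p = 0.0126) at the lowest adjusted p. Over the 63 tested genes of these lists 20 rose, Gen1 among them, and 1 fell. Their median difference was 0.26, against -0.1 for all genes tested.

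Promoters were examined because E2F factors are known to drive many S-phase genes. RefSeq promoter sequences of build GRCm38.p6, from 250 bases before to 50 after the start, were matched by symbol for 31 of the 38 genes (34 promoters). An E2F site was counted as TTTGGCGC, TTTGCCGC, TTTCGCGC or TTTCCCGC on either strand. It was present in 9 of the 34 promoters (26.5%), those of Bard1, Fancg, Chek2, Brca2, Topbp1, Rad51c, Xrcc6 and Msh6, against 2.26% of all 32851 promoters and 3.45% of the 14227 promoters of tested genes. The promoters of the 38 hold more CG dinucleotides, with a median of 23.0 against 18.0 for tested genes. Among called genes 3 of 10 promoters had such a site, and among the other tested genes 5 of 19. The CHR element TTTGAA was in 8.82% of the promoters, against 17.9% of all and 12.3% of those of tested genes. The CCAAT box CCAAT was in 55.9%, against 37.4% and 36.5%. Of the 4 genes with the largest rises, Xrcc5, Chek1, Atm and Blm, none held these E2F letters in this window. The 3 called genes that did are printed 5′ to 3′ on the gene's strand, with the E2F match in capitals, to show where it lies: Topbp1 at chr9:103305077-103305376, Brca2 at chr5:150522371-150522670 and Msh6 at chr17:87974800-87975099, all on the plus strand.
Topbp1: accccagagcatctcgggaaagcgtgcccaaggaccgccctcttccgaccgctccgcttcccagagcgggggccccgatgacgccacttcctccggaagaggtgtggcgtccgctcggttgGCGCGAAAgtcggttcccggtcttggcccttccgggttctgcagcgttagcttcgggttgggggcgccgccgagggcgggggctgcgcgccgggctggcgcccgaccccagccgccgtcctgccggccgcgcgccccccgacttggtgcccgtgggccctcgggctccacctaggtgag
Brca2: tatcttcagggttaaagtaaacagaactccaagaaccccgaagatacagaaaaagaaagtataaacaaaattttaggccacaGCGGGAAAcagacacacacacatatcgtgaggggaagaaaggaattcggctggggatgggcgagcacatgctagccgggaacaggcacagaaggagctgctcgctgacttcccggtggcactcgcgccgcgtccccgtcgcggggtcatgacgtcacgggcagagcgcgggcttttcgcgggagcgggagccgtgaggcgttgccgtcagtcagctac
Msh6: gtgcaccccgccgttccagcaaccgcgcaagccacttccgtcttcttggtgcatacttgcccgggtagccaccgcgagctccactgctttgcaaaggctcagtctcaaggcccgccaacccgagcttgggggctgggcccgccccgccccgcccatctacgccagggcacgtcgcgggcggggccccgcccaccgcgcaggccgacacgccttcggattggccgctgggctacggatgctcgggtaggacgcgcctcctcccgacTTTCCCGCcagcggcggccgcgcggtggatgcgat
The match begins 129 bases before the start in Topbp1 and 168 before it in Brca2, both read on the opposite strand, and 16 bases after the start in Msh6. A match of letters is a description and does not show that a factor binds there.

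GS and GB ask what each allele does alone. In GS against Control limma called 0 of 29 higher and 0 lower (unadjusted, 1 and 0, against 3.58% and 2.33% of all genes), where 0.0211% of all genes were called higher and 0.0% lower. The 1 was Parp1, at 7.53, 7.7 and 7.41 in GS, a difference of 0.29 ± 0.103 (SE) with an adjusted p = 0.645. All GS arrays were above all Control arrays for 4 of the 36 genes, Fancm, Chek1, Xrcc5 and Parp1 (6.57% of all genes). Chek1 differed by 0.39 and Xrcc5 by 0.58 in GS, and neither passed (adjusted p = 0.645 for both). With array weights 7 of the 29 were called higher and 2 lower in GS, where 24.1% of all genes were higher and 20.7% lower.

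In GB against Control limma called 0 of 29 (unadjusted, 0 higher and 0 lower, against 0.909% and 0.19% of all genes), where 0.0% of all genes were called. No gene of the 36 had all GB arrays above all Control arrays (2.89% of all genes). The median differences were 0.03 in GS and 0.01 in GB. GB replicate 2 was the lowest of all 12 arrays for 13 of the 36 genes, among them Xrcc5, Rad50, Atm, Atr and Msh6, and this held for 18.4% of all genes.

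**Figure D4:**
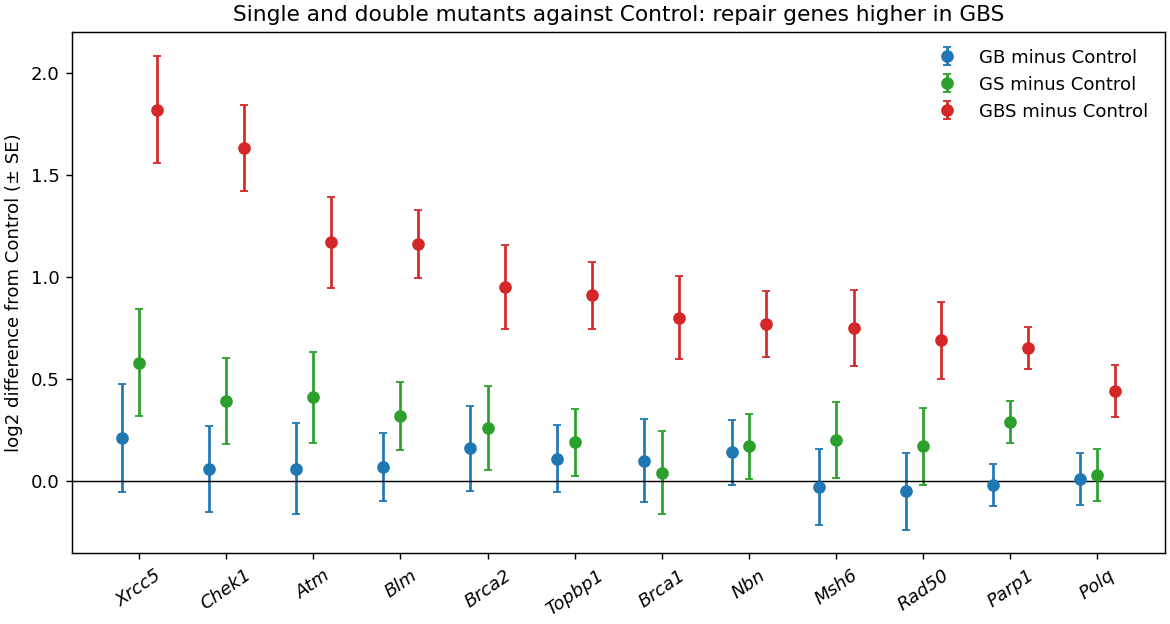
Log2 difference from Control (y axis, ± SE of the fit) of GB, GS and GBS for the 12 repair genes called higher in GBS (x axis); each point rests on 3 pups against 3. GBS points lie between 0.44 and 1.82, GS points between 0.03 and 0.58 and GB points between -0.05 and 0.21.

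GBS against GS asks what stabilised beta-catenin adds to active Smoothened. Limma called 4 of 29 genes higher and 0 lower, where 3.56% of all genes were higher and 1.51% lower. Without adjustment 15 were higher and 0 lower (10.7% and 7.92% of all genes). Chek1 was higher by 1.24 ± 0.211 (SE; adjusted p = 0.00785), Xrcc5 by 1.25 ± 0.263 (SE; adjusted p = 0.0215), Blm by 0.85 ± 0.167 (SE; adjusted p = 0.0153) and Topbp1 by 0.71 ± 0.164 (SE; adjusted p = 0.0321). All GBS arrays were above all GS arrays for 16 of the 36 genes, against 12.7% of all genes. With the Xist level as a covariate 0 of the 4 passed in limma, with adjusted p up to 0.301. The count was 1 when GBS replicate 2 was left out (1.89% of all genes) and also when GS replicate 2 was (1.74%). It was 7 without GBS replicate 3 (3.03%) and 12 without GB replicate 2 (7.75%).

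GBS against GB asks what active Smoothened adds to stabilised beta-catenin. Limma called 12 of 29 genes higher and 0 lower, where 9.6% of all genes were higher and 3.12% lower. Without adjustment 16 were higher and 1, Xrcc3, lower (21.9% and 19.8% of all genes). The 12 were the genes called against Control, without Polq (0.43; adjusted p = 0.0513) and with Rad51c (0.41 ± 0.109 SE; adjusted p = 0.036), and both comparisons use the same GBS arrays. The rises ran from 0.41 in Rad51c to 1.61 ± 0.263 (SE; adjusted p = 0.00492) in Xrcc5, with Chek1 at 1.56 ± 0.211 (SE; adjusted p = 0.00194). The count was 5 without GBS replicate 2 (2.79% of all genes), 7 without GB replicate 2 (6.88%) and 7 without Control replicate 1 (6.52%). With only the GBS and GB arrays in the fit limma called 0 (0.542% of all genes).

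The interaction asks whether the change with both alleles differs from the sum of the single changes. Limma called 0 of 29 genes (unadjusted, 7 higher and 0 lower, against 4.84% and 3.32% of all genes), where 0.324% of all genes were called higher and 0.00704% lower. Chek1 had the largest interaction, 1.17 ± 0.298 (SE; adjusted p = 0.21): beta-catenin was tied to a difference of 1.24 where Smoothened was active and of 0.06 where it was not. Xrcc5 followed at 1.04 ± 0.373 (adjusted p = 0.47) and Blm at 0.78 ± 0.236 (adjusted p = 0.324). The median interaction of the 29 genes was 0.40, against -0.03 for all genes. Without GBS replicate 3, 1 of the 29 was called (0.183% of all genes).

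The GBS pups differed among themselves. GBS replicate 2 was the highest of all 12 arrays for 27 of the 36 genes, which held for 19.1% of all genes, and it also had the highest dividing-cell level. GBS replicate 3 was the lowest of the GBS arrays for every called gene other than Xrcc5 and Msh6. For each of the 12 called genes it still lay above every array of Control, GB and GS. The calls of Blm, Chek1, Parp1, Topbp1 and Xrcc5 against Control held in all 25 alternatives that changed the processing, the model or the arrays used, leaving out GBS replicate 2 included.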

How the data were processed

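Total RNA from 12 newborn forebrains was isolated with Trizol and labelled with biotin, per the labels' protocols. The authors deposited log2 values that Expression Console (Affymetrix) computed with RMA, according to the submitters' processing notes; no version or probe set library is given. The log2 scale was taken from the values (2.82 to 13.83), and the number of arrays limits the precision. Of 35556 probe sets, 21789 had 1 gene symbol and 1621 several in a GEO platform annotation; symbols were updated by gene identifier to RefSeq GRCm38.p6.

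limma 3.58.1 (lmFit, eBayes; R 4.3.3) was fitted with 1 mean per genotype, 8 residual and 2.9 prior degrees of freedom. In a simulation of GBS against Control over 14195 genes, 200 were changed and noise was drawn independently for each value. There 78% of 2-fold and 95% of 4-fold changes were recovered. Real arrays share deviations that the simulation left out, so these rates may not hold for these data. p-values measure the spread between these pups only. The partner pairs and tissue genes were chosen after values were seen. Genes of the list were all open to naming; from other repair lists up to 3 with the lowest adjusted p were named. The genes and lists were chosen with earlier results of these data known. The alternatives were other filters, probe set averaging, normalization, centring, variance models, array weights, fewer groups, a replicate block, thresholds, covariates and left-out arrays.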

Additional observations from a re-analysis of the deposited data

How the results depend on the processing

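Of the 12 calls in GBS against Control, 5 (Blm, Chek1, Parp1, Topbp1 and Xrcc5) held in all 25 alternatives that kept the threshold, and 7 of the 17 uncalled genes passed in at least 1. The 12 became 6 at an adjusted p under 0.01 and 4 with at least a 2-fold change, 6 to 16 with 1 array left out, and 8 with the receptor-gene level as a covariate, which ended the calls of Atm, Brca2, Msh6, Nbn, Polq and Rad50. Array weights, estimated gene by gene because the default estimate did not converge, gave 1 lower gene in that comparison (25.9% of all genes), 7 higher and 2 lower in GS against Control (24.1% and 20.7%), 14 higher in GBS against GS (9.04%) and 4 higher in the interaction (2.73%). The 4 higher genes of GBS against GS became 1 at 0.01, 2 with a 2-fold change, 14 without the 3 arrays that deviate together, 8 with the receptor-gene level and 0 with the Xist level as a covariate, and 1 to 12 with 1 array left out. The 12 of GBS against GB became 0 with only the groups compared, 4 at 0.01, 4 with a 2-fold change, 6 with the receptor-gene level and 4 with the Xist level as a covariate, and 5 to 13 with 1 array left out. The interaction gave 0 to 1 with 1 array left out. No called gene changed direction. With the replicate block 9 genes were higher in GBS against Control, 1 in GBS against GS and 6 in GBS against GB. The replicate numbers share only a number: correlations of deviations in the 18 same-numbered pairs ran from -0.818 to 0.739, and 4 of 12 arrays correlated best with their own number. Levels near or below the 40th percentile, as for the 7 untested genes and for Xrcc5, Blm, Brca2 and Atm in Control, may be limited by array background. This was not tested.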
